A study of Mus musculus with 6 samples.

Results

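Guanylate-binding protein (GBP) genes of the mouse were followed in L929 fibroblasts taken from a co-culture with tumour cells. The 10 genes are Gbp2, Gbp2b, Gbp3, Gbp5 and Gbp7 on chromosome 3 and Gbp4, Gbp6, Gbp8, Gbp9 and Gbp10 on chromosome 5, and they are all genes of the deposited table, of 21929 genes, whose symbol begins with Gbp. They were chosen by symbol, with the measured levels of these 6 libraries and the differences between the groups already known. Levels and differences of the 10 genes are therefore a description of these libraries, given without p-values, and support nothing beyond them. A mean level would have decided between rows with the same symbol, and 0 of the 10 symbols repeated.

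RNA-seq libraries came from 3 samples of L929 cells that had not interacted with tumour cells (Biotin-negative, titled Ctrl1 to Ctrl3) and 3 of L929 cells that had interacted with MFCSTCL (Biotin-positive, titled E1 to E3), a name the labels do not spell out. Both groups are labelled co-culture and carry the same batch label, no L929 cells kept alone were included, and the labels do not say how the biotin was attached. A difference that cells had before they interacted therefore cannot be told apart from one that came with the interaction. L929 is an established line, a clone from connective tissue of a C3H mouse. No label states that libraries of a group are separate cultures, so the tests rest on the spread between libraries that may be technical repeats. Levels are in FPKM, in which fragments are divided by gene length and library size, so that genes can be set side by side. Differences are Biotin-positive minus Biotin-negative on the log2(FPKM + 1) scale. A gene "rose" or "fell" in Biotin-positive libraries where limma, run over 11029 genes, gave an adjusted p under 0.05.

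GBPs are large GTPases of the dynamin superfamily. Interferons, above all interferon gamma, switch their genes on through transcription factors, IRF1 among them, that bind gamma-activated sites or interferon-stimulated response elements. The proteins assemble on vacuoles that hold parasites or bacteria and on bacteria in the cytosol, with help from the conjugation machinery of the LC3 family and from the smaller p47 immunity-related GTPases (IRGs), and they promote caspase activation there. A few members end in a CaaX box, a cysteine 4 residues from the end of the protein that receives a lipid and anchors the protein in membranes.

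The last 30 coding bases, stop codon included, are shown for the 10 members, because they separate the members of the lipid-anchored type from the rest. They were read from GENCODE vM21 transcripts (GRCm38), are written 5′ to 3′, and have in capitals a cysteine codon at the place 4 codons before the stop.
Gbp5: agacatcatcatgacTGTgttataagctaa
Gbp7: cagaattcagacaaagttagaaaactctaa
Gbp3: ctgaaattcctcggctcactaagtagttag
Gbp2b: cctccacctcgatcaTGCaccatactttaa
Gbp2: aaatcgtctgggaagTGCactatactctga
Gbp8: atttattttttctcccatttcaatgattga
Gbp9: acacacaatccttcacttttaaggaaatga
Gbp4: tcactccttaggaaaaaggatagactgtga
Gbp10: taccttgtccgttatctaaagcatttatga
Gbp6: taccttgtccgttatctaaagcatttatga
Such a codon was found in 3 members, Gbp5, Gbp2b and Gbp2, all on chromosome 3, and in 0 of the 5 members on chromosome 5. The endings of Gbp10 and Gbp6 are the same 30 bases.

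Members on the 2 chromosomes moved apart in Biotin-positive cells. On chromosome 3, 4 of 5 members rose and 1, Gbp5, did not pass the test. On chromosome 5, 5 of 5 members fell. The test called 73.9% of all tested genes, 37.8% as higher and 36.1% as lower. These shares are of 4168 higher and 3985 lower genes, and an equal FPKM sum per library turned the balance to 3688 higher and 4502 lower. The median log2 difference was 0.64 for the chromosome 3 members and -1.72 for the chromosome 5 members, against 0.01 for all tested genes. The filter on low values (1 FPKM in at least 3 libraries) was passed by all 10 members, 9 of them in both groups. Gbp8 passed through the Biotin-negative libraries alone, so that it had to differ, and without it the chromosome 5 median was -1.66. RNA of whole cell populations was measured, so fewer cells that express a gene and less RNA of it per cell cannot be told apart.

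**Figure D1:**
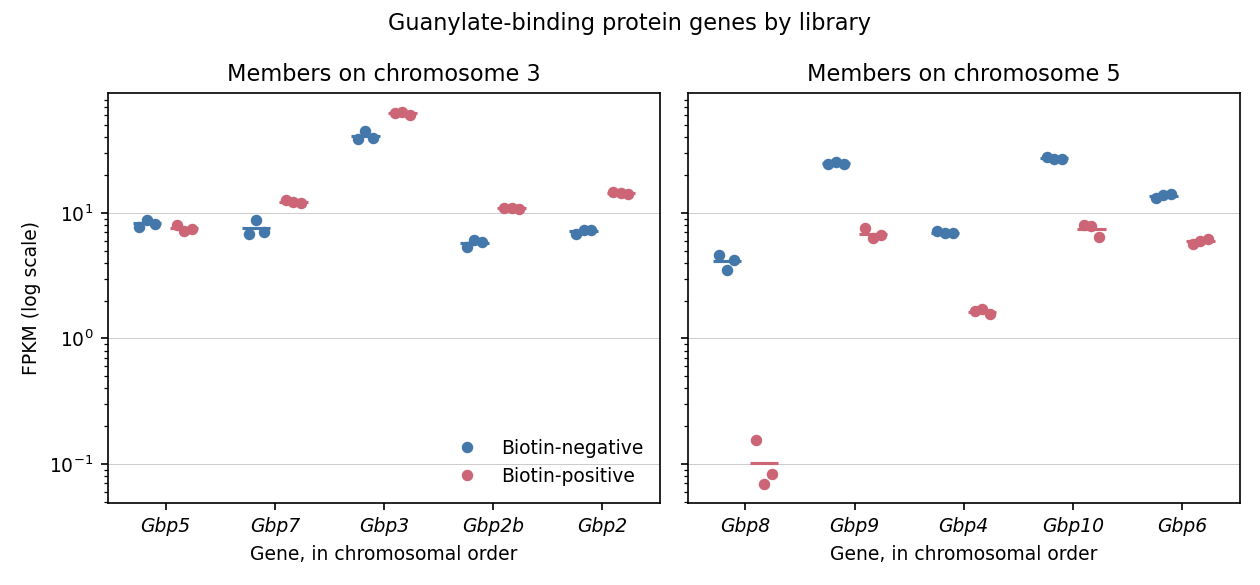
FPKM on a log axis of each member in each library, in chromosomal order, with Biotin-negative libraries in blue, Biotin-positive libraries in red and a line at the mean of 3 libraries. The red points lie above the blue ones for 4 of the 5 genes on chromosome 3 and below them for 5 of 5 on chromosome 5.

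FPKM sums per library lay between 337771 and 356681, and since reads per library are not part of the values, the depth is unknown. Of 9 fibroblast markers 6 were tested: Vim rose, the collagen genes Col1a1, Col1a2 and Col3a1 and the receptor genes Pdgfra and Pdgfrb fell, and Thy1, Dcn and Lum were under 1 FPKM in every library. Macrophages also express GBP genes: of 9 macrophage markers 6, Ptprc and Csf1r among them, were under 1 FPKM in every library, and Adgre1 was listed at 0 throughout. Of the 3 tested, Cd14 (3.400 to 6.39 FPKM) and Lyz2 (1.36 to 2.42 FPKM) rose and Cd68 (8.59 to 7.13 FPKM) fell, and the 9 markers summed to 11.9 to 15.3 FPKM in Biotin-negative and 14.8 to 17.8 FPKM in Biotin-positive libraries. Of 6 T and NK cell markers and of 5 endothelial markers 0 reached 1 FPKM in any library. The sum of 10 epithelial markers was 0.467 to 0.604 FPKM against 45.1 to 47.6 FPKM, with Krt7 and Krt8 higher and the remaining 8, Epcam and Cdh1 included, under 1 FPKM. Krt7 and Krt8 passed the filter in the Biotin-positive libraries alone, so that they had to differ. The part of these macrophage and epithelial marker differences in the GBP values was not tested.

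Among the chromosome 3 genes, Gbp2 encodes a lipid-anchored GBP that gathers on pathogen vacuoles (ENSMUSG00000028270, chr3:142620602-142638008 on GRCm38, plus strand). Biotin-negative libraries gave 6.75, 7.302 and 7.34 FPKM for it and Biotin-positive libraries 14.6, 14.5 and 14.1 FPKM. Every Biotin-positive library was above every Biotin-negative one, and the mean went from 7.13 ± 0.3296 to 14.4 ± 0.273 FPKM (SD, n = 3 per group), a ratio of 2.01 and a log2 difference of 0.92 (SE 0.0488). Gbp2b, once named Gbp1, is its neighbour (ENSMUSG00000040264, chr3:142594847-142619179, plus strand) and has a CaaX-type ending too. Its levels were 5.32, 6.09 and 5.86 FPKM in Biotin-negative libraries against 11.01, 11.04 and 10.8 FPKM. The groups did not overlap, and the ratio of means was 1.904 (log2 difference 0.83, SE 0.0563). With 82.5% identical coding bases, Gbp2 and Gbp2b are the closest pair on this chromosome.

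Gbp3 (ENSMUSG00000028268, chr3:142560026-142573209, plus strand), which lacks the CaaX-type ending, had the highest level of the family in both groups. Biotin-negative libraries stood at 38.8, 44.7 and 39.7 FPKM, Biotin-positive ones at 62.2, 63.7 and 60.5 FPKM. The lowest Biotin-positive library was well above the highest Biotin-negative one, and the mean rose from 41.1 ± 3.16 to 62.1 ± 1.56 FPKM (ratio 1.51, log2 difference 0.59, SE 0.0528). Gbp7 (ENSMUSG00000040253, chr3:142530342-142550149, plus strand) encodes a GBP that helps assemble the NADPH oxidase on phagosomes. Its levels were 6.83, 8.76 and 7.09 FPKM in Biotin-negative and 12.7, 12.2 and 11.9 FPKM in Biotin-positive libraries. The second Biotin-negative library was the highest of its group and still under all Biotin-positive ones, and the mean rose 1.63-fold (log2 difference 0.64, SE 0.0824). A share of 10.2% of the 100-base windows of the Gbp7 transcript also occurs in transcripts of Gbp3 or of a gene model that the table does not list.

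Gbp5 (ENSMUSG00000105504, chr3:142493978-142522344, plus strand), known for a part in inflammasome activation, stood apart from the other chromosome 3 members. Biotin-negative libraries held 7.74, 8.84 and 8.16 FPKM of it, Biotin-positive libraries 7.97, 7.199 and 7.403 FPKM. The groups overlapped, and the log2 difference was -0.12 (SE 0.0625, 95% confidence interval -0.26 to 0.03). The smallest difference among the other chromosome 3 members was 0.59, and Gbp5 was not tested against them. With every library scaled to the same FPKM sum Gbp5 passed the test as lower, at a log2 difference of -0.17, and without Biotin-negative 2 the difference was -0.07. Gbp5 lies on chromosome 3 and has a CaaX-type ending, as do Gbp2 and Gbp2b, which rose. Whether the place or the ending bears on the level was not tested.

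On chromosome 5, Gbp8 (ENSMUSG00000034438, chr5:105014150-105139540, minus strand) gave the largest difference of the family. Its levels were 4.59, 3.54 and 4.19 FPKM in Biotin-negative and 0.154, 0.0688 and 0.0823 FPKM in Biotin-positive libraries. All Biotin-positive values were near 0, and the Biotin-negative mean was 40.4 times the Biotin-positive one (log2 difference -2.21, SE 0.08601). The log2 difference of so low a gene depends on the pseudocount and was -4.40 with 0.1 in place of 1. Gbp4 (ENSMUSG00000079363, chr5:105115767-105139586, minus strand) has been reported to restrain the factor IRF7. Levels of Gbp4 were 7.19, 6.86 and 6.87 FPKM in Biotin-negative and 1.64, 1.701 and 1.56 FPKM in Biotin-positive libraries. The groups were far apart, and the Biotin-negative mean was 4.27 times the Biotin-positive one (log2 difference -1.60, SE 0.0555).

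Gbp9 (ENSMUSG00000029298, chr5:105077630-105139539, minus strand) gave 24.7, 25.3 and 24.4 FPKM in Biotin-negative libraries and 7.57, 6.28 and 6.71 FPKM in the Biotin-positive group. No values overlapped, and the mean fell 3.62-fold (log2 difference -1.72, SE 0.0623). The annotated spans of Gbp8, Gbp9 and Gbp4 reach almost the same base at their 5′ ends, but of their exon bases only 1.77%, 1.16% and 0.814% lie in an exon of another gene on the same strand. Their transcripts share 3.81%, 2.01% and 2.88% of 100-base windows with transcripts of other genes.

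Gbp10 (ENSMUSG00000105096, chr5:105215699-105239533, minus strand) had the highest Biotin-negative level on this chromosome, 28.2, 27.1 and 26.7 FPKM, against 7.98, 7.87 and 6.47 FPKM in Biotin-positive libraries. The groups did not overlap, and the mean fell 3.67-fold (log2 difference -1.75, SE 0.07203). Gbp6 (ENSMUSG00000104713, chr5:105270702-105293698, minus strand) went from 13.1, 13.97 and 14.2 FPKM to 5.68, 5.95 and 6.204 FPKM. It fell 2.32-fold without overlap, the least of the chromosome 5 members (log2 difference -1.09, SE 0.0534).

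How reads were split between Gbp10 and Gbp6 is uncertain. Their coding sequences share 98.4% of bases, and 70.9% of the 100-base windows of the Gbp10 transcript and 82.9% of those of Gbp6 occur in transcripts of other genes. A further gene model, Gm43302, spans both loci and shares exons with each. Levels of Gm43302 were 27.5, 28.97 and 27.04 FPKM in Biotin-negative and 10.5, 9.99 and 10.9 FPKM in Biotin-positive libraries, a log2 difference of -1.33. Summed over Gbp6, Gbp10 and Gm43302, the level was 68.8, 70.04 and 67.9 FPKM against 24.2, 23.8 and 23.6 FPKM. The sum was thus 2.89 times as high in Biotin-negative libraries, and all 3 gene models fell.

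All 5 chromosome 5 members fell by more than 1 on the log2 scale, as did 3.41% of the tested genes. A lower difference than theirs was held by 2.72% of the tested genes for Gbp6, 0.852% for Gbp4, 0.671% for Gbp9, 0.617% for Gbp10 and 0.199% for Gbp8. For the chromosome 3 members these shares were 93.6% for Gbp2, 92.4% for Gbp2b, 88.3% for Gbp7, 87.0% for Gbp3 and 39.4% for Gbp5. Groups of libraries did not overlap for 9 of the 10 members, 4 of them higher and 5 lower. The same held for 76.9% of the tested genes, 39.1% higher and 37.8% lower.

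Tested neighbouring genes of the table went both ways on chromosome 3. On chromosome 5, outside the run of members, Thoc2l, Lrrc8b and Lrrc8c fell, Zfp951 rose and Lrrc8d did not pass. Gm43302, which shares exons with Gbp10 and Gbp6, lies inside the run and fell. Of all tested genes, 37.8% rose and 36.1% fell. Next to the chromosome 3 members, the PDZ and LIM domain gene Pdlim5 did not pass (log2 difference 0.09), but was called higher with no filter on low values (0.09) and with quantile normalization (0.09). Beyond their other end Kyat3, a kynurenine aminotransferase gene, fell (12.3 to 8.99 FPKM), while the general transcription factor gene Gtf2b (15.5 to 20.6 FPKM) and the kinase gene Pkn2 (13.4 to 18.01 FPKM) rose. Unc5c and Bmpr1b stayed under 1 FPKM in every library. Next to the chromosome 5 members, Thoc2l fell (5.77 to 3.57 FPKM) and the zinc finger gene Zfp951 rose (0.819 to 1.103 FPKM, log2 difference 0.21), passing the filter in the Biotin-positive libraries alone. That call was lost when any library other than Biotin-negative 2 was left out (0.15 to 0.23), with quantile normalization (0.12) and with an equal FPKM sum (0.18). The volume-regulated anion channel genes Lrrc8b and Lrrc8c fell (log2 differences -0.29 and -0.36). Lrrc8d did not pass (-0.14), but was called lower without Biotin-negative 2 (-0.22) and with an equal FPKM sum per library (-0.19), and was at -0.07 without Biotin-negative 1. The transporter gene Abcg3, 31432 bases from Gbp8, was under 1 FPKM throughout. Tested neighbours outside the runs of members had smaller differences, from -0.57 to 0.40, than the members that passed on the same chromosome.

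**Figure D2:**
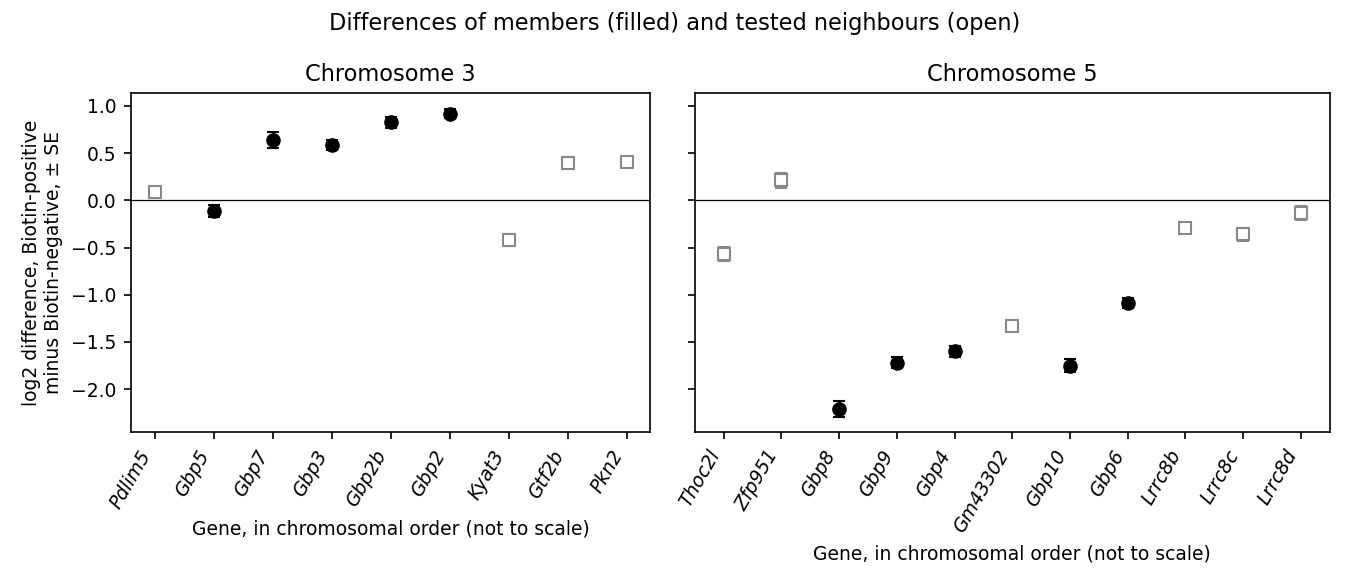
log2 difference with its SE, Biotin-positive minus Biotin-negative, for members (filled circles) and tested neighbours (open squares) in chromosomal order, which is not to scale. On chromosome 3 the members lie between -0.12 and 0.92, on chromosome 5 between -2.21 and -1.09, with Gm43302 (-1.33) among them and the outer neighbours between -0.57 and 0.40.

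Summed over the 10 genes, the level was lower in Biotin-positive libraries, without overlap of the groups, and its make-up changed. Gm43302 (27.8 to 10.5 FPKM), which shares exons with Gbp6 and Gbp10, is not counted in the sums, shares and order of levels below. No level was listed for Gbp11, whose transcripts share windows with those of Gbp8, Gbp4 and Gbp6, so the family here means the 10 genes. The 10 genes together gave 143, 152 and 144 FPKM in Biotin-negative libraries and 131, 130.5 and 126 FPKM in Biotin-positive libraries, a ratio of 0.881. The chromosome 3 sum was 65.5, 75.7 and 68.1 FPKM against 108, 109 and 105 FPKM, a ratio of 1.54. The chromosome 5 sum was 77.7, 76.8 and 76.4 FPKM against 23.02, 21.9 and 21.02 FPKM, a ratio of 0.285. Chromosome 5 members thus held 52.5 ± 1.97% of the family's FPKM in Biotin-negative and 17.0 ± 0.446% in Biotin-positive libraries (SD, n = 3). Gbp3 alone held 28.0 ± 1.17% and 48.1 ± 0.740%.

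**Figure D3:**
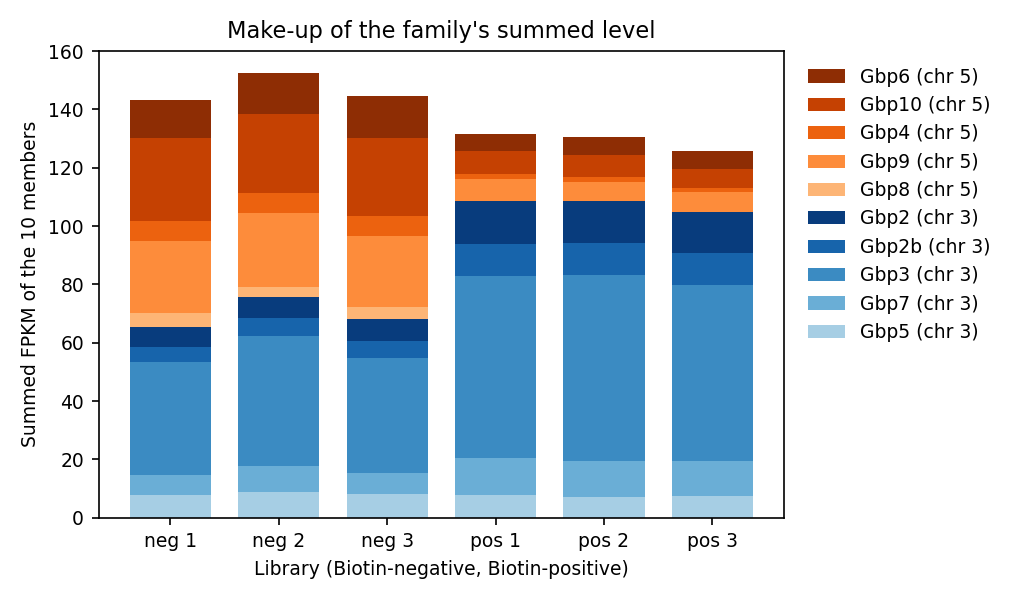
Stacked FPKM of the 10 members in each of the 6 libraries, from 0, with chromosome 3 members in blues below and chromosome 5 members in oranges above. The orange part makes up 52.5% of the Biotin-negative bars on average and 17.0% of the Biotin-positive ones, with full heights of 126 to 152 FPKM.

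The order of the levels changed with it. In Biotin-negative libraries Gbp3 (41.1 FPKM) was followed by 3 chromosome 5 genes, Gbp10 (27.3), Gbp9 (24.8) and Gbp6 (13.8 FPKM), each with a range over its libraries clear of the next. Gbp5 (8.25), Gbp7 (7.56), Gbp2 (7.13) and Gbp4 (6.97 FPKM) then followed with ranges that overlapped from each to the next, and Gbp2b (5.76) and Gbp8 (4.11 FPKM) came last. In Biotin-positive libraries the first 5 places were held by chromosome 3 genes, Gbp3 (62.1), Gbp2 (14.4), Gbp7 (12.3), Gbp2b (10.96) and Gbp5 (7.53 FPKM). Gbp5, Gbp10 (7.44) and Gbp9 (6.85 FPKM) overlapped from each to the next, and Gbp6 (5.94), Gbp4 (1.63) and Gbp8 (0.102 FPKM) were apart at the end.

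Members of the 2 chromosomes also differ in how alike their coding sequences are. The 10 pairs within chromosome 5 had 90.2% to 98.4% identical aligned coding bases, with a median of 90.8%. The 10 pairs within chromosome 3 ranged from 63.9% to 82.5% (median 65.1%), close to the 25 pairs between the chromosomes (63.5% to 75.4%, median 64.6%). Gbp7 and Gbp3, which both rose, were closest in sequence to each other (78.5%). They were closer to the chromosome 5 genes that fell (72.7% to 75.4%) than to Gbp2 and Gbp2b, which rose as well (63.9% to 65.3%). A link between likeness of sequence and direction was not tested.

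**Figure D4:**
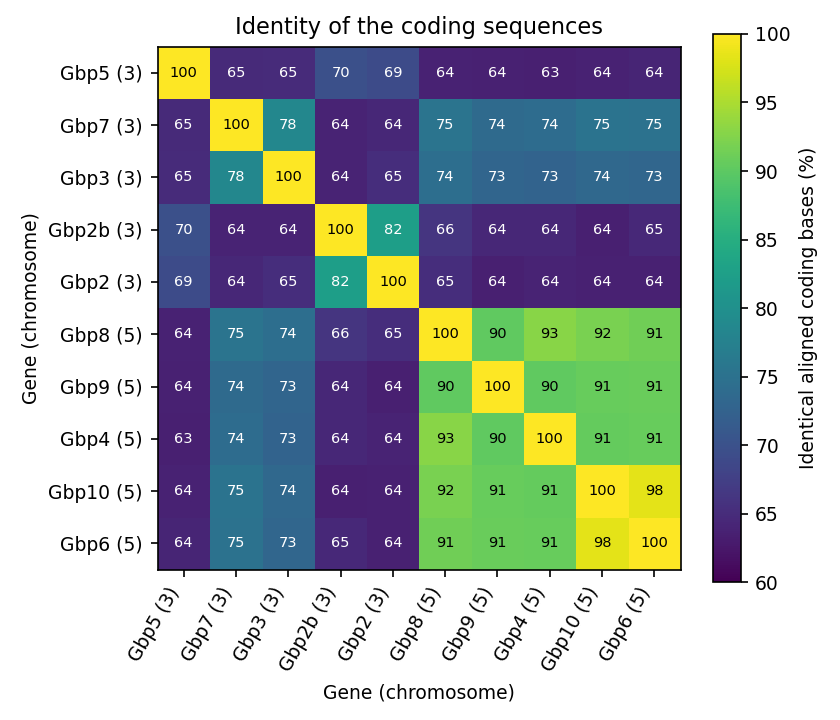
Percent of aligned coding bases that are identical for each pair of members, with the chromosome in brackets and a colour scale from 60 to 100%. The block of chromosome 5 genes is at 90.2% or above, and Gbp7 and Gbp3 reach 72.7% to 75.4% with that block.

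Promoter windows, from 250 bases before to 50 after an annotated start, were found in the RefSeq table (GRCm38.p6) for the 5 chromosome 3 members, Gbp3 with 2 starts. Gbp4, Gbp6, Gbp8, Gbp9 and Gbp10 were not matched there. The windows were searched for the core of the interferon-stimulated response element (GAAA, any 2 bases, GAAA, on both strands) and for the gamma-activated site TTCNNNGAA, which reads the same on both strands. The 250 bases before the start are shown for Gbp5 (chr3:142496684-142496933, plus strand), the member that did not rise, and Gbp2 (chr3:142620413-142620662, plus strand), which had the largest rise, with matches in capitals. The annotated span of Gbp5 begins upstream of this window, at 142493978, and the bases before that position were not searched.
Gbp5: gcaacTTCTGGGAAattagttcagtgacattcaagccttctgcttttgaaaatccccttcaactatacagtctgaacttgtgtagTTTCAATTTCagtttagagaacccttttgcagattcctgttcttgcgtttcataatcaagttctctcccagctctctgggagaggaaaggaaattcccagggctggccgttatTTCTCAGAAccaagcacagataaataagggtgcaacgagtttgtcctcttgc
Gbp2: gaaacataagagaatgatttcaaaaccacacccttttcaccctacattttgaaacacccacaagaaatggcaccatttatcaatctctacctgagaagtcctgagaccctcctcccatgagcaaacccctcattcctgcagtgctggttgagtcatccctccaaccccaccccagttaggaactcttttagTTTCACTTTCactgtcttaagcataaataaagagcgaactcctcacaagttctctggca
For the remaining 3 genes, 60 bases around the response element match are shown, at chr3:142530258-142530317 for Gbp7, chr3:142559974-142560033 for Gbp3 and chr3:142594685-142594744 for Gbp2b, all on the plus strand.
Gbp7: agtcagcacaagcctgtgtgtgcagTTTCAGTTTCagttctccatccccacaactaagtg
Gbp3: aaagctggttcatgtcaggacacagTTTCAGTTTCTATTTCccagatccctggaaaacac
Gbp2b: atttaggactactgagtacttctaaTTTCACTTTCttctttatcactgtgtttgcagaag

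All 5 genes held the response element core in at least 1 window, with its GAAA repeats on the minus strand, as did 3.44% of the 32851 windows of the table. It lay 59 to 50 bases before the start in Gbp2, 53 to 44 in Gbp7, 137 to 128 in Gbp2b and 165 to 156 in Gbp5. One window of Gbp3 held 2 overlapping matches between 45 and 30 bases before the start, and its other window held 0. The gamma-activated site was matched in 2 places each in Gbp5 (245 to 237 and 52 to 44 bases before the start) and in Gbp7 (106 to 98 and 87 to 79), and in 8.30% of all windows. Gbp5, which did not pass, and Gbp7, which rose, therefore held the same kinds of matches. A match of letters is a description and not a bound site.

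The p47 IRGs, which act with GBPs on vacuoles, mostly rose. Of 10 tested genes of this list 9 rose and 1, F830016B08Rik (2.63 to 1.88 FPKM), fell, with a median log2 difference of 0.61. Counts of this list and of those below stand beside all tested genes, of which 37.8% rose and 36.1% fell. Ifi47 rose from 6.19 ± 0.189 to 13.9 ± 0.985 FPKM (limma adjusted p = 7.42e-07). The regulatory IRG genes rose too, Irgm2 from 18.3 ± 0.586 to 32.3 ± 0.768 FPKM and Igtp from 26.4 ± 0.989 to 43.95 ± 1.74 FPKM. Tgtp1 (29.8 to 76.4 FPKM) and Tgtp2 (19.3 to 42.2 FPKM) rose as well, but 83.3% and 80.4% of their windows occur in other transcripts, so the level of each is uncertain.

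Other large GTPases were split. Of 7 tested, 2 rose, 2 fell and 3 did not pass, with a median log2 difference of 0.02. Those that passed are atlastin and dynamin genes. The interferon-inducible Gvin1 and Gm4070 (entered as Gvin2) did not pass (0.02 for each), and Mx1, Mx2 and Gvin3 were not matched. Among all tested genes 37.8% rose and 36.1% fell. The atlastin genes Atl1 and Atl2, which shape the endoplasmic reticulum, rose (2.07 to 3.13 FPKM and 16.8 to 21.3 FPKM). The neuronal dynamin gene Dnm1 fell from 12.00 ± 0.282 to 4.94 ± 0.448 FPKM. Dnm2, the widely expressed dynamin, fell (39.9 to 35.5 FPKM), a call lost without Biotin-negative 1, Biotin-positive 2 or Biotin-positive 3 (log2 differences -0.12, -0.15 and -0.13).

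Upstream of the family, ligand transcripts were low. Of 10 interferon ligand genes 1 was tested: Ifnb1, interferon beta, rose from 0.755 ± 0.0746 to 2.03 ± 0.388 FPKM and passed the filter through the Biotin-positive libraries alone. Ifng, interferon gamma, was listed at 0 in the Biotin-negative libraries and averaged 0.0114 FPKM in the Biotin-positive ones. Of 8 tested receptor and Janus kinase genes 6 fell and 0 rose, with a median log2 difference of -0.19. Both type I receptor genes fell, Ifnar2 from 44.8 ± 1.96 to 26.03 ± 0.508 FPKM and Ifnar1 from 22.8 ± 0.319 to 16.2 ± 0.535 FPKM. The kinase gene Jak1 fell from 63.4 ± 1.82 to 38.6 ± 0.729 FPKM (limma adjusted p = 2.91e-07). The interferon gamma receptor gene Ifngr1 also fell (8.99 to 7.71 FPKM), a call lost without Biotin-negative 1, Biotin-negative 3 or Biotin-positive 1 (log2 differences -0.19, -0.19 and -0.13). Jak2 fell likewise (9.97 to 8.75 FPKM), a call lost without Biotin-negative 2, Biotin-positive 1 or Biotin-positive 2 (-0.14, -0.14 and -0.16).

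Transcription factors of the response were split, with 5 rises, 4 falls and 2 genes not past the threshold among 11. The shares of all tested genes were 37.8% higher and 36.1% lower. Irf1, whose product acts on GBP promoters, rose from 18.1 ± 1.15 to 38.4 ± 1.78 FPKM (log2 difference 1.04, limma adjusted p = 4.32e-07). Irf5 rose from 2.25 ± 0.134 to 5.39 ± 0.205 FPKM, while Nlrc5, a regulator of class I genes, fell from 35.6 ± 2.93 to 21.3 ± 0.774 FPKM and Stat3 from 34.1 ± 1.44 to 23.9 ± 0.207 FPKM. Among 11 brakes of the signal 5 rose, 3 fell and 3 did not pass. Socs1, which inhibits Janus kinases, rose from 1.53 ± 0.112 to 3.64 ± 0.0409 FPKM and the protease gene Usp18 from 127 ± 2.64 to 195 ± 5.45 FPKM. Cish rose as well (0.663 to 1.71 FPKM), passing the filter in the Biotin-positive libraries alone. Socs2 (8.900 to 5.08 FPKM) and Pias3 (13.9 to 9.07 FPKM) fell.

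Other interferon-induced genes give the setting for the family. Of 12 tested genes induced by interferon gamma 8 rose, 3 fell and 1 did not pass (median log2 difference 0.38), and of 18 induced by type I interferon 13 rose, 3 fell and 2 did not pass (median 0.51). Among the former, 2 chemokine genes rose, Cxcl10 from 51.03 ± 2.81 to 342 ± 4.34 FPKM and Cxcl9 from 7.29 ± 0.0417 to 13.02 ± 0.292 FPKM. Cd274, which encodes PD-L1, rose from 1.14 ± 0.113 to 5.94 ± 0.409 FPKM and Nos2, the inducible nitric oxide synthase gene, from 2.79 ± 0.292 to 9.002 ± 0.476 FPKM. The peptide transporter gene Tap2 fell (20.4 to 13.5 FPKM). Among the latter, the antiviral genes Rsad2, Ifit2 and Oasl1 rose (49.7 to 214 FPKM, 14.6 to 36.8 FPKM and 90.4 to 209 FPKM). Cmpk2 rose from 0.305 ± 0.0673 to 4.300 ± 0.119 FPKM and passed the filter in the Biotin-positive libraries alone. Oas2, which makes the activator of an RNase, fell from 103 ± 2.51 to 48.3 ± 1.91 FPKM, at -1.07 the lowest log2 difference of both lists, against -2.21 to -1.09 for the chromosome 5 GBP genes.

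Genes of the proteins that GBPs work with went several ways. Of the LC3 conjugation machinery 3 of 10 rose and 4 fell, against 37.8% and 36.1% of all tested genes. The activating enzyme gene Atg7 rose from 5.24 ± 1.36 to 8.97 ± 0.541 FPKM and Gabarapl2 from 26.2 ± 0.262 to 34.9 ± 0.866 FPKM, while Map1lc3a (19.5 to 12.3 FPKM) and Map1lc3b (61.8 to 40.99 FPKM) fell. Gabarap fell from 72.4, 70.3 and 70.8 FPKM to 57.2, 55.4 and 31.1 FPKM, with Biotin-positive 3 far below the other two of its group. Its log2 difference of -0.61 became -0.33, still called lower, without that library, and the call was lost without Biotin-negative 1 (-0.60), with no filter on low values and with a robust variance prior. Of 6 genes of enzymes that attach and process the CaaX lipid 3 rose and 2 fell, with log2 differences from -0.26 to 0.45. Fntb, the farnesyltransferase beta subunit gene, rose from 7.93 ± 0.134 to 11.2 ± 0.288 FPKM, and Fnta, for the shared alpha subunit, fell from 54.9 ± 2.87 to 45.6 ± 2.401 FPKM. Icmt rose (18.03 to 19.9 FPKM), a call lost with an equal FPKM sum per library (log2 difference 0.07). Zmpste24 rose (32.6 to 35.9 FPKM), a call lost without Biotin-negative 1, Biotin-negative 3 or Biotin-positive 2 (0.11, 0.13 and 0.13), with quantile normalization (0.08) or with an equal FPKM sum (0.08). Rce1 fell (22.2 to 20.1 FPKM), a call lost without Biotin-negative 2, Biotin-negative 3, Biotin-positive 2 or Biotin-positive 3 (-0.13, -0.14, -0.10 and -0.13) or with no filter on low values.

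Inflammasome and pyroptosis genes mostly fell, 5 of 6 tested against 36.1% of all tested genes, with a median log2 difference of -0.69. Casp4, which encodes the caspase activated by bacterial lipopolysaccharide on GBP-coated bacteria, fell from 132 ± 0.737 to 50.04 ± 0.8304 FPKM (limma adjusted p = 3.28e-09). Casp1 fell from 21.4 ± 1.72 to 9.999 ± 0.6501 FPKM. The pore protein gene Gsdmd fell from 8.301 ± 0.243 to 5.25 ± 0.0621 FPKM, Ninj1, for a protein that ruptures the membrane of dying cells, from 81.5 ± 2.797 to 46.01 ± 2.14 FPKM, and the DNA sensor gene Aim2 from 42.2 ± 2.32 to 30.4 ± 0.583 FPKM. The cytokine gene Il18 rose (3.66 to 5.13 FPKM). Pycard, Nlrp3, Nlrc4 and Il1b were under 1 FPKM in every library. Of 11 ubiquitin and host-defence partners 6 rose and 3 fell, with a median of 0.14. Pim1, for a kinase that restrains a human GBP, rose from 8.18 ± 0.898 to 30.96 ± 0.9697 FPKM, and the galectin gene Lgals3 from 194 ± 3.27 to 418 ± 14.3 FPKM. The ubiquitin ligase genes Rnf213 and Trim21 rose too (41.3 to 61.6 FPKM and 12.6 to 17.1 FPKM), while Calcoco1 fell (18.02 to 14.2 FPKM).

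**Figure D5:**
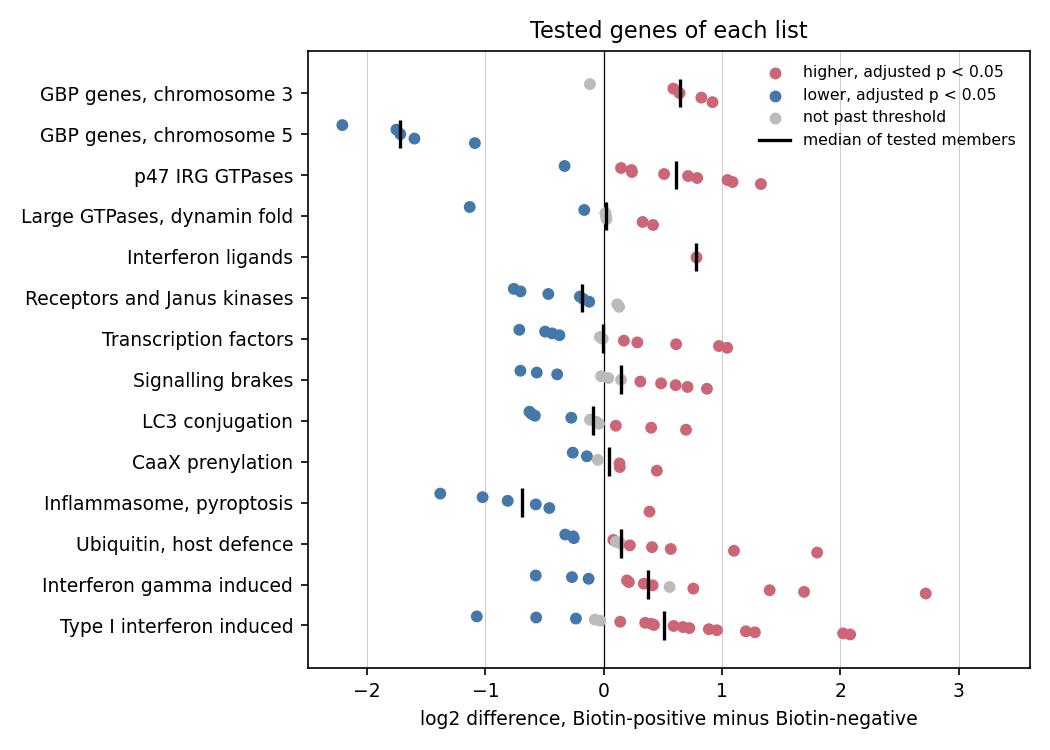
log2 difference, Biotin-positive minus Biotin-negative, of each tested gene on the 2 GBP chromosomes and in 12 related lists, coloured by its limma call, with a line at each median. The chromosome 5 GBP genes lie between -2.21 and -1.09 and the chromosome 3 genes between -0.12 and 0.92, while the p47 IRGs have a median of 0.61.

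The genes whose profiles over the 6 libraries were nearest to the mean profile of the chromosome 3 members were Polr2j, Ro60, Ranbp6, Rab11a and Psmc6, with root-mean-square distances of 0.0301 to 0.0339 on the centred log2 scale. Polr2j, for a subunit of RNA polymerase II, went from 25.05 ± 1.43 to 38.1 ± 0.874 FPKM. Nearest to the chromosome 5 members were Ypel3, Mxd4, Plin4, Col6a3 and Cyp4b1 (0.0154 to 0.0333). Ypel3 went from 48.3 ± 1.44 to 14.4 ± 0.7297 FPKM and Col6a3, a collagen VI chain gene, from 103 ± 4.88 to 32.1 ± 0.582 FPKM.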

How the data were processed

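RNA of 3 Biotin-negative and 3 Biotin-positive L929 libraries was sequenced. Per the submitters' processing notes, cutadapt 1.9.1, HISAT2 2.2.1, HTSeq 0.6.1 and GRCm39 were used. The deposited values are FPKM, and the program and denominator behind them, and the strandedness, are not given in the sources used here. The coordinates in the table equal those of GENCODE vM21, on GRCm38, for 21616 of 21816 genes found in both, all 10 members included, so positions are given on GRCm38.

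A pseudocount of 1 was added before the log2. The 11029 genes that reached 1 FPKM in 3 or more of the 6 libraries went through limma 3.58.1 (R 4.3.3, eBayes with a trend, two-sided, Benjamini-Hochberg adjustment over all tested genes, threshold 0.05). The procedure was tried on simulated data with far fewer changed genes than were called here, so that trial does not vouch for these calls. Levels are mean ± SD, n = 3. The members and the 12 lists were chosen with earlier results of these data known. Of 137 list entries 5 were not matched and are not analysed here. All members are named, all neighbours (the 3 nearest genes on either side and any gene between), and up to 5 passing genes per list with the largest difference, of which 1 is not reported here; the cell markers are a set list. Genes named outside this rule (F830016B08Rik, Gvin1, Gm4070, Il18, Ifng, Pycard, Nlrp3, Nlrc4 and Il1b) were chosen after their values were seen. Equal replicate numbers do not mark shared samples in the labels, so they were not used as pairs. Coding sequences were aligned with Biopython 1.88. Windows of 100 bases were compared with all GENCODE vM21 transcripts. Alternatives were pseudocounts of 0.1 and 0.5, no filter, a minimum of 5 FPKM, 3 scalings, 2 variance priors, the replicate block and leaving out each library.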

Additional observations from a re-analysis of the deposited data

How the results depend on the processing

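Across the 16 alternatives 4 members were called higher in every one, and the number called lower was 5 except among genes of at least 5 FPKM, where Gbp8 was not tested and 4 were, and with an equal FPKM sum per library, where Gbp5 was added as the sixth (6). The median log2 difference of the chromosome 5 members (-1.72) moved by more than the spread between libraries, without a change of direction, to -1.87 with a pseudocount of 0.1, -1.81 with 0.5, -1.66 among genes of at least 5 FPKM, where Gbp8 left the set, and -1.78 with an equal FPKM sum. Leaving out 1 library gave -1.78 to -1.67 for that median and 0.58 to 0.74 for that of the chromosome 3 members (0.64). Of these, -1.78 without Biotin-positive 1 and 0.74 without Biotin-negative 2 were also moves beyond the spread. The replicate block left 4 members higher and 5 lower and gave 4113 higher and 3927 lower genes in all, against 4168 and 3985 without it. Deviations of same-numbered libraries from their group means had correlations of 0.0120 to 0.0371 over 11029 genes. Noise of single libraries can hide a shared origin, so these values cannot decide whether same-numbered libraries came from 1 co-culture. The block ended the call of Rce1 (adjusted p = 0.0561) among the genes named. Without reads per library, what depth limits could not be computed, which bears most on Gbp8 in the Biotin-positive libraries.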
